A study of Danio rerio with 12 samples.

Results

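Expression of 4 genes that mark the epicardium, *tcf21*, *wt1a*, *wt1b* and *tbx18*, was followed across the chambers of the adult zebrafish heart. The genes were taken by name from a table of 22158 genes, in which each had 1 row, and all 4 passed the filter on low counts that left 19145 genes for testing. Of the 4, *wt1b* was low in the ventricle and several-fold higher in every other tissue, *tbx18* was low in the ventricle and in the WT sinus venosus, *tcf21* varied least, and *wt1a*, the least abundant, passed the test in no comparison.

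The epicardium is the mesothelial sheet that covers the heart. During development it arises from the proepicardium, spreads over the chambers, and some of its cells undergo an epithelial-to-mesenchymal transition and give rise to fibroblasts and mural cells. All 4 genes encode transcription factors. Tcf21 is a basic helix-loop-helix protein that binds DNA with E-protein partners, and *tcf21* is widely used to label the zebrafish epicardium and its derivatives. Wt1 is a zinc-finger protein known for its roles in kidney podocytes, gonads and epicardium, and zebrafish carry a pair of paralogues, *wt1a* and *wt1b*. Tbx18 is a T-box protein of the epicardium which, in the mouse, is also required to form the sinus horns and the head of the sinoatrial node.

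RNA sequencing was available for 12 libraries, 2 in each of 6 groups. WT fish, labelled as an AB/TU background, gave the bulbus arteriosus (BA, the outflow chamber), the atrium, the ventricle and the sinus venosus (SV, the inflow chamber). Fish labelled aco (AB/TU) gave an SV and a ventricle. They carry the *nr2f1a* aco allele, a deletion upstream of the coding sequence of *nr2f1a*, which encodes a nuclear receptor of the atrium. Mutant BA was not analysed here, nor was mutant atrium, which the paper reports that adult mutant hearts effectively lack. Each library was made from tissue pooled from 20 adult fish of 6 months to 1.5 years, so the spread between libraries is a spread between pools, and the p-values measure only that spread. For the mutant libraries the title and genotype label name the mutant while the tissue label reads WT; they were used as mutant.

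Between 28325098 and 60532949 reads were counted per library, with a median of 36798922.5. Levels are given as CPM, counts scaled to library size with TMM factors, replicate 1 before replicate 2. Mutant SV replicate 1 stood apart in the factor for unwanted variation, at 2.12 SD from the mean of the libraries, and the next farthest was WT ventricle replicate 1 at -1.67. The transcript of *nr2f1a* itself was still counted in the mutants, at 13.1 and 24.7 CPM in the mutant SV against 17.9 and 9.67 in the WT SV, so its level is no check of the genotype. The CPM of 7 cardiomyocyte genes summed to 33390 to 78050 in the WT atrium and ventricle and 340 to 2078 in the WT BA and SV. The mesothelial marker *upk3b* did not exceed 0.0294 CPM in any library, and *mslna* and *mslnb* did not exceed 1.282 CPM except for *mslna* in WT SV replicate 2, at 5.64 CPM. Other listed genes of epicardium and mesothelium were abundant: *krt8* averaged 4273 CPM, and *aldh1a2* was 38.7 to 282 CPM. These levels do not measure how much mesothelium a library held. In whole-tissue RNA, fewer cells of a type and less RNA per cell cannot be told apart.

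The most abundant of the 4 genes was *wt1b*. Its mean over all libraries was 24.5 CPM, above 82.2% of the genes tested. Next came *tcf21* at 7.31 CPM, above 61.3% of genes, then *tbx18* at 2.64 CPM and *wt1a* at 1.08 CPM, above 43.6% and 29.6%. The replicates of a group differed by more than counting error in 19 of the 24 combinations of gene and group. The share of all genes that did so is not given here. Over all genes the chi-square of replicate counts per degree of freedom was 162 to 288 in the 6 groups. Spread beyond counting error was thus general in these libraries and not particular to the 4 genes. Among the 4 genes the largest gaps were in the least abundant. *wt1a* had 1 and 9 reads in the mutant ventricle, a ratio of 0.15 per total count (95% exact interval 0.0034 to 1.08). In the WT ventricle it had 67 and 10 reads, a ratio of 6.23 (3.19 to 13.6). *tbx18* had 8 and 30 reads in the WT ventricle, a ratio of 0.248 (0.098 to 0.554), and 303 and 102 in the mutant SV, a ratio of 3.27. These intervals cover counting error only.

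**Figure D1:**
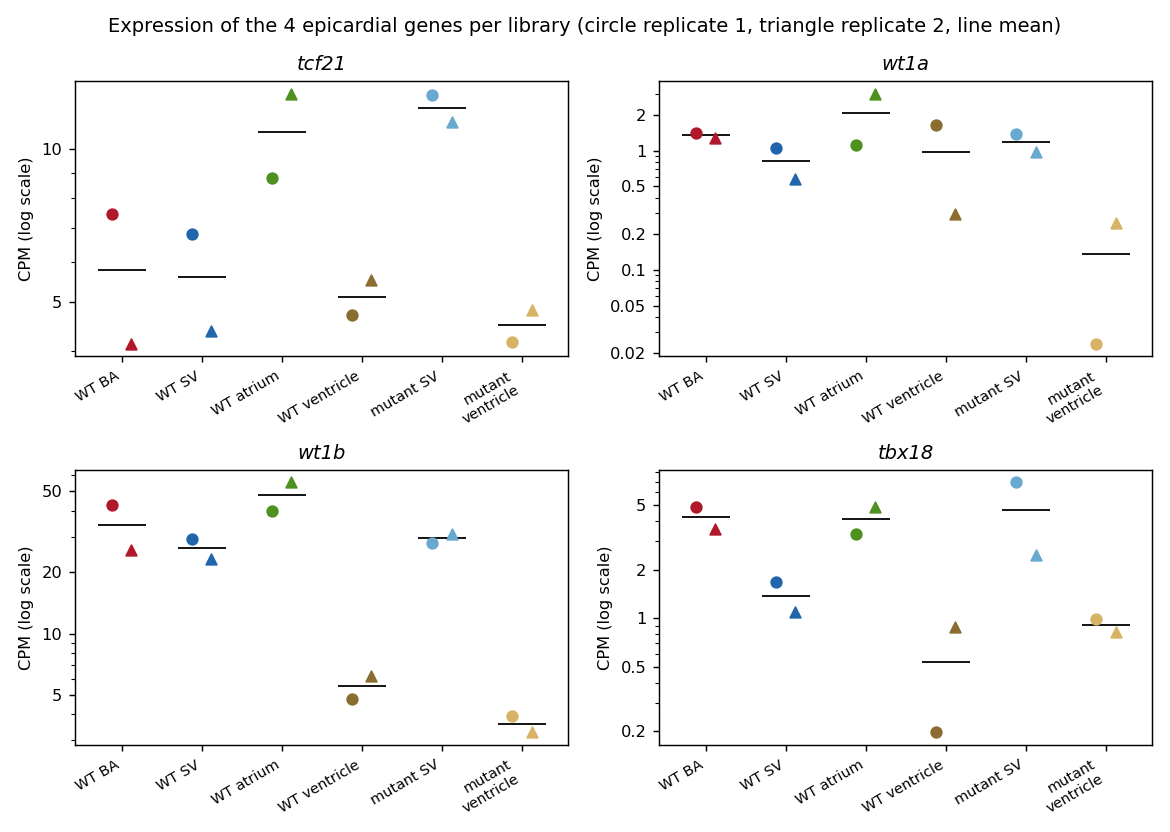
CPM on a log axis for each epicardial gene, with the 6 groups along the horizontal axis, a circle for replicate 1, a triangle for replicate 2 and a line at the mean of the 2 libraries. For *wt1b* the 4 ventricle libraries lie between 3.26 and 6.19 CPM and the other 8 between 23.3 and 55.5 CPM; for *tbx18* the WT SV lies between the ventricles and the remaining tissues.

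The paralogue *wt1b* separated the ventricle from all other tissues. Among WT libraries it measured 40.1 and 55.5 CPM in the atrium, 43.1 and 25.7 in the BA, 29.3 and 23.3 in the SV, and 4.79 and 6.19 in the ventricle. In the mutants it was 28.03 and 30.9 CPM in the SV and 3.92 and 3.26 in the ventricle. Every ventricle library was thus below every library of another tissue, with no overlap, while the BA, SV and mutant SV overlapped among themselves. The order of means ran from the atrium (47.8 ± 10.9 CPM, SD, n = 2) through BA, mutant SV and WT SV (26.3 ± 4.20) to the WT ventricle (5.49 ± 0.99) and mutant ventricle (3.59 ± 0.47).

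Across the WT chambers *wt1b* was higher than in the ventricle in all 3 comparisons. It was 8.63-fold higher in the atrium (log2 fold change 3.11, SE 0.36, adjusted p = 0.00164, edgeR quasi-likelihood test with Benjamini-Hochberg adjustment), 6.15-fold higher in the BA (2.62, SE 0.36, adjusted p = 3.2e-04) and 4.67-fold higher in the SV (2.22, SE 0.36, adjusted p = 7.6e-04). These calls held under all 6 alternative settings tried and without any 1 of the 12 libraries. Between the other WT chambers *wt1b* was not called: the SV was below the BA by 0.40 on the log2 scale (95% interval -1.13 to 0.34, edgeR adjusted p = 0.45) and below the atrium by 0.89 (SE 0.34, edgeR adjusted p = 0.0886). The atrium and ventricle libraries had cardiomyocyte sums of the same order. Of the 7 cardiomyocyte genes 1 was higher and 1 lower in the atrium, where all genes gave 3.07% and 1.96%. Of 6 leukocyte genes 5 were higher in the atrium, as were all 5 erythrocyte genes, and of 7 endothelial genes 2 were lower. Of 11 fibroblast genes 2, 9 and 8 were higher in the atrium, BA and SV than in the ventricle, and 1 was lower in the SV. In the BA and SV 5 and 6 leukocyte genes were higher than in the ventricle. Of all genes 13.8% were higher in the BA and 19.4% in the SV. The part of tissue makeup in the *wt1b* differences was not tested.

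The T-box gene *tbx18* shared the low level in the ventricle but was also low in the WT SV. It measured 4.89 and 3.56 CPM in the BA, 3.33 and 4.85 in the atrium, 1.67 and 1.09 in the SV, and 0.197 and 0.881 in the ventricle of WT fish. BA and atrium overlapped, the SV libraries lay below both, and the ventricle libraries lay below the SV. The 4 WT ventricle and mutant ventricle libraries held only 8 to 41 reads of *tbx18* each.

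In the WT SV *tbx18* was 3.21-fold lower than in the BA (log2 fold change -1.68, SE 0.51, edgeR adjusted p = 0.0428) and 3.49-fold lower than in the atrium (-1.80, SE 0.52, edgeR adjusted p = 0.0311). Against the ventricle it was 7.59-fold higher in the BA (2.93, SE 0.55, edgeR adjusted p = 0.00243) and 8.25-fold higher in the atrium (3.05, SE 0.55, edgeR adjusted p = 0.0128), while the SV was higher by 1.24 (95% interval 0.06 to 2.43) without passing the adjusted test (edgeR adjusted p = 0.0948). BA and atrium differed by -0.12 (95% interval -1.21 to 0.97, edgeR adjusted p = 0.909). The difference between SV and BA was the least secure: its edgeR adjusted p was 0.199 without BA replicate 1 and 0.277 without SV replicate 2, and 0.0502 to 0.0876 without any 1 of SV replicate 1, either atrium library or either mutant SV library. The difference between SV and atrium had an edgeR adjusted p of 0.195 without SV replicate 2 and of 0.0591 to 0.097 without any 1 of the same SV, atrium and mutant SV libraries, and that between atrium and ventricle 0.171 without ventricle replicate 1 and 0.101 without atrium replicate 1. Of the 6 alternative settings, 2 kept the call for SV against BA, 4 those for SV and ventricle against the atrium, and 5 that for BA against ventricle.

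Transcripts of other organs moved with the WT SV. Of 5 enterocyte genes 4 were higher there than in each other WT chamber, and their CPM summed to 182 and 204 in the SV and 0.429 to 1.26 in the BA, atrium and ventricle. Of all genes 9.35% were higher in the SV than in the BA, and 19.4% than in the ventricle. The share higher than in the atrium is not given here, so counts against the atrium stand without it. Liver genes (6 genes) summed to 313 and 718 CPM in the SV, 311 and 342 in the BA and 9.26 to 27.4 in atrium and ventricle, and 5, 5 and 6 of them were higher in the SV than in the BA, atrium and ventricle. The median log2 fold change against the atrium was 8.95 for the enterocyte genes and 5.50 for the liver genes, beside 0.06 for all genes. In the BA *tfa* alone was 307 and 340 CPM, and each other liver gene was at most 3.62 CPM. Kidney genes (3 matched) summed to 195 and 394 CPM in the SV against 15.7 to 68.1, and erythrocyte genes (5 genes) to 94660 and 193800 CPM against 7633 to 54110. Outside the SV the kidney sum was nearly all *slc20a1a*, at 15.65 to 67.95 CPM. *cdh17* was 33.96 and 48.4 CPM in the SV and at most 0.13 in the other WT chambers. Skeletal muscle genes (4 matched) summed to 513 and 247 CPM in the SV and 134 and 28.8 in the BA, and to 2314 or more in atrium and ventricle. There *ckma* alone was 2303 CPM or more, and it was lower in the SV than in either. *mylpfa* was 232 and 107.5 CPM in the SV and *tnnt3b* 63.7 and 15.9, against at most 3.83 and 4.01 in the other WT chambers. *actn3a* was not called between the SV and atrium or ventricle. Of 5 neuron and glia genes 4, 1 and 4 were higher in the SV than in the BA, atrium and ventricle. Among them *mbpa* was 47.8 and 13.1 CPM in the SV against at most 9.44 in the other WT chambers. The part of these transcripts in the SV levels of *tbx18* and the other 3 genes was not tested.

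The libraries of 3 WT chambers overlapped in *tcf21*, and its highest WT values were those of the atrium. It was 7.45 and 4.14 CPM in the BA, 6.81 and 4.38 in the SV, 4.72 and 5.52 in the ventricle, and 8.76 and 12.9 in the atrium. The atrium libraries lay above all other WT libraries, and BA, SV and ventricle overlapped. None of the differences between WT chambers passed the test. The atrium exceeded the ventricle by 1.06 on the log2 scale (95% interval 0.20 to 1.93, edgeR adjusted p = 0.146), and the SV differed from the ventricle by 0.09 (95% interval -0.78 to 0.97, edgeR adjusted p = 0.878) and from the BA by -0.06 (95% interval -0.91 to 0.80, edgeR adjusted p = 0.936).

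The second Wt1 paralogue, *wt1a*, had the fewest reads. Its CPM was 1.41 and 1.27 in the BA, 1.05 and 0.582 in the SV, 1.102 and 3.0 in the atrium, and 1.65 and 0.294 in the ventricle. The ventricle libraries spanned most of the range, and all WT groups overlapped at least one other group. No difference between WT chambers passed the test, with edgeR adjusted p of 0.347 to 0.999; the interval for the atrium minus the ventricle, the comparison in which *wt1b* changed most, ran from -0.86 to 3.46 for *wt1a*.

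Counted together, the SV minus BA comparison called 1 of the 4 genes lower, beside 8.69% of all genes, and the SV minus atrium comparison also 1, beside 10.9% of all genes. In the SV against the ventricle 1 was higher (19.4% of all genes), in the BA against the ventricle 2 were higher (13.8%), and in the atrium against the ventricle 2 were higher (3.07%). None was called between BA and atrium, where 18.6% of all genes were called in either direction. The median log2 fold change of the 4 genes was 2.17 for the atrium minus the ventricle, beside 0.07 for all genes tested, and -1.14 for the SV minus the atrium, beside 0.06. The WT comparisons share libraries and are therefore not separate tests.

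**Figure D2:**
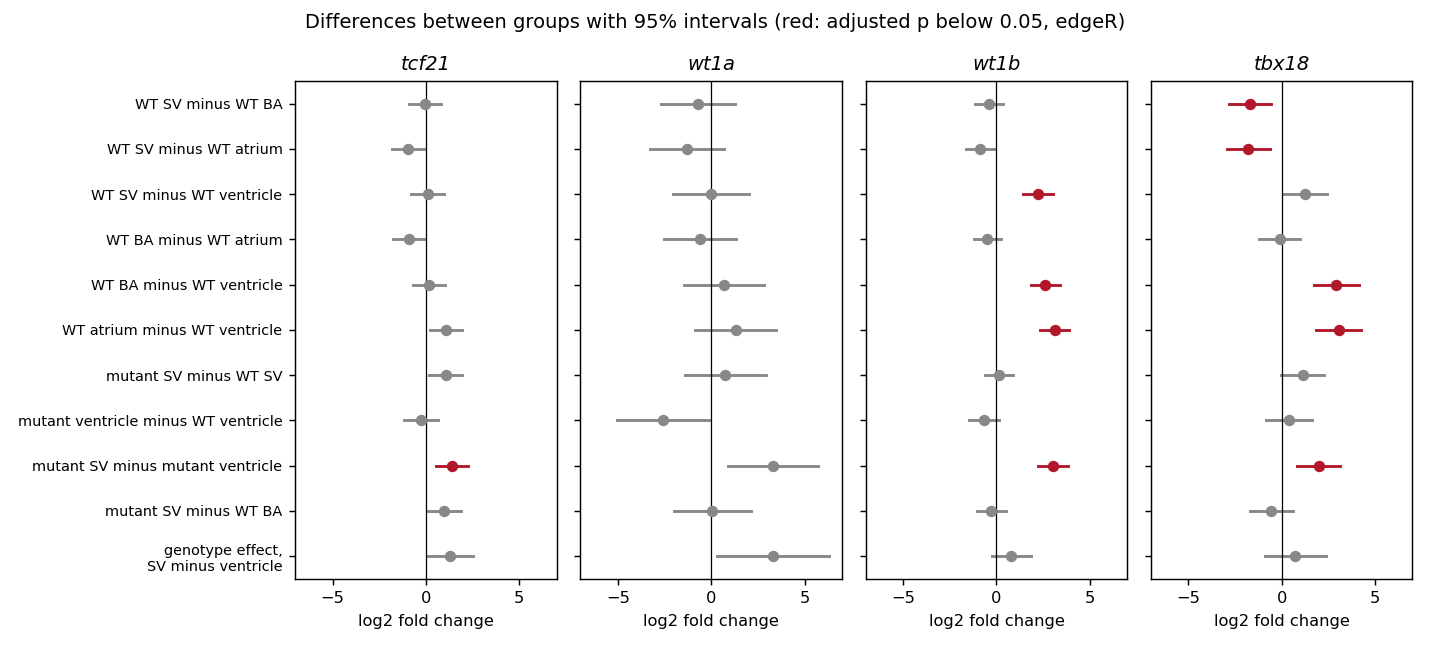
Log2 fold changes (horizontal axis) of each epicardial gene in the 10 comparisons between groups and in the difference of the genotype effect between SV and ventricle; points are estimates, bars are 95% intervals, and red marks an edgeR adjusted p below 0.05. Of the 44 tests 10 are red: 4 for *wt1b*, 5 for *tbx18*, 1 for *tcf21* and 0 for *wt1a*.

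The same tissues were then compared between genotypes, the mutant SV being the tissue whose adaptation the study addresses. In the mutant SV *tcf21* was 12.8 and 11.3 CPM against 6.81 and 4.38 in the WT SV. The difference was 2.07-fold (log2 fold change 1.05, SE 0.40, 95% interval 0.16 to 1.94) and did not pass the adjusted test (edgeR adjusted p = 0.262). *tbx18* was 6.94 and 2.46 CPM in the mutant SV against 1.67 and 1.09, with a wide gap between the mutant libraries (1.12, 95% interval -0.04 to 2.29, edgeR adjusted p = 0.38). For *wt1b* the mutant libraries, at 28.03 and 30.9 CPM, lay beside the WT values of 29.3 and 23.3 (0.12, 95% interval -0.63 to 0.87, edgeR adjusted p = 0.926). *wt1a* was 1.37 and 0.963 CPM in the mutant SV and overlapped the WT SV (0.75, 95% interval -1.42 to 2.92, edgeR adjusted p = 0.814).

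None of the 4 genes was called between mutant and WT SV, where 1.55% of all genes were called. None was called between the ventricles either, where 0.266% of all genes were. In the mutant ventricle *tcf21* was 4.16 and 4.82 CPM, near the WT ventricle values. *tbx18* was 0.987 and 0.822 CPM there, against split values of 0.197 and 0.881 in the WT ventricle. Its difference was 0.40 (95% interval -0.83 to 1.62, edgeR adjusted p = 0.784), and leaving out 1 library gave 0.04 to 1.83. *wt1b* was lower in the mutant ventricle by 0.68 on the log2 scale, which did not pass (95% interval -1.48 to 0.12, edgeR adjusted p = 0.415). *wt1a* had 1 read and 9 reads in the mutant ventricle libraries against 67 and 10 in the WT ones, 1 being the lowest count of the 4 genes in any library, and the difference of -2.57 (95% interval -5.07 to -0.07) did not pass (edgeR adjusted p = 0.335). The test of whether the genotype effect differed between SV and ventricle called none of the 4 genes and 0.204% of all genes, and gave 1.30 for *tcf21* (95% interval 0.09 to 2.51, edgeR adjusted p = 0.372), 3.32 for *wt1a* (0.32 to 6.32, 0.362), 0.80 for *wt1b* (-0.26 to 1.85, 0.53) and 0.73 for *tbx18* (-0.91 to 2.37, 0.736).

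Within the mutants, 3 of the 4 genes were higher in the SV than in the ventricle, where 9.86% of all genes were called higher. Of 11 fibroblast genes 9 were also higher in this comparison, and the part of tissue makeup was not tested. *wt1b* was 8.10-fold higher (log2 fold change 3.02, SE 0.36, edgeR adjusted p = 2.8e-04), a call that held under every setting and without any 1 library. *tbx18* was 3.92-fold higher (1.97, SE 0.53, edgeR adjusted p = 0.0216) and *tcf21* 2.63-fold higher (1.39, SE 0.40, edgeR adjusted p = 0.0284). For *wt1a* the estimate was 3.32 (95% interval 0.92 to 5.71, edgeR adjusted p = 0.0517), and DESeq2 with the same factor called it (Benjamini-Hochberg adjusted p = 0.00528), as did edgeR in 6 of the 12 fits that left out a library, those without either WT atrium or WT ventricle library, mutant ventricle replicate 2 or mutant SV replicate 2 (adjusted p of 0.0338 to 0.0446). The *tcf21* call was lost without any 1 of the 4 libraries compared (edgeR adjusted p = 0.171 and 0.0874 without mutant ventricle replicates 1 and 2, 0.109 and 0.0686 without mutant SV replicates 1 and 2), and the *tbx18* call without mutant SV replicate 1 (0.159) or mutant ventricle replicate 1 (0.123) or 2 (0.102).

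Against the WT BA, the mutant SV showed no called difference in the 4 genes, where 7.23% of all genes were called. The estimates were 0.99 for *tcf21* (95% interval 0.09 to 1.90), 0.05 for *wt1a* (-2.00 to 2.11), -0.28 for *wt1b* (-1.04 to 0.49) and -0.56 for *tbx18* (-1.72 to 0.61), on the log2 scale, with edgeR adjusted p of 0.17 to 0.985. All 4 intervals reach past 2-fold in at least one direction. The sign for *tbx18* depended on the factor. Its mean was 4.70 CPM in the mutant SV and 4.23 in the BA, with overlapping libraries, and the estimate without the factor was 0.15.

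In the same libraries, the fibroblast genes (11 matched) summed to 16820 and 8121 CPM in the mutant SV against 2235 and 2318 in the WT SV. Of these sums *fn1b* alone was 13400 and 5143 CPM against 946 and 1063. The paper reports fibronectins enriched in several smooth muscle clusters as well. Of the 11 genes 2, *fn1b* and *postna*, were higher, where 1.55% of all genes were called in either direction. Liver genes (6 genes) summed to 5334 CPM in mutant SV replicate 1 and 457 in replicate 2, and thyroid genes (3 matched) to 1.603 and 282 CPM. Liver genes were thus high in replicate 1 and thyroid genes in replicate 2. Smooth muscle genes (7 genes) were split too, summing to 1205 and 5635 CPM against 3344 and 2595 for WT. Enterocyte genes (5 genes) summed to 3.755 and 1.18 CPM against 182 and 204, and all but *cdhr5a* were called lower. Of the kidney genes only *cdh17* was called, as lower (log2 fold change -5.58, edgeR adjusted p = 0.00671). Erythrocyte genes (5 genes) summed to 39420 and 49450 CPM against 94660 and 193800, and only *hbaa2* was called lower. The part of these transcripts in the values of the 4 genes was not tested.

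To compare genes with each other, levels per length were used, in the deposited FPKM (fragments scaled by gene length and library size). In the WT BA, SV and atrium *wt1b* was 3.66 to 5.28 times the level of *tcf21* in every library. In the WT ventricle the ratio was 0.865 and 0.956, and in the mutant ventricle 0.803 and 0.576. Per length *tcf21* was thus above *wt1b* in all 4 ventricle libraries and in none of the others. In the WT ventricle the reads were 192 and 188 for *tcf21* and 195 and 211 for *wt1b*. The 2 genes were thus near equal there, and their order rests on the length scaling. The ratio in the mutant SV lay between, at 1.87 and 2.33, below each WT SV library (3.66 and 4.54).

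The ratio of *wt1b* to *tbx18* placed the tissues in another order. It was highest in the WT SV at 16.3 and 19.9 among groups whose replicates lay close together, 11.2 and 10.7 in the atrium, 8.21 and 6.71 in the BA and 3.71 and 3.70 in the mutant ventricle. The WT ventricle (22.7 and 6.56) and the mutant SV (3.77 and 11.8) were split by their replicates, which differed chiefly in *tbx18*. The ratio of *wt1b* to *wt1a* spanned 2.06 to 116, with both extremes in ventricle libraries and 13.1 to 28.4 in the 8 libraries of other tissues, and *wt1b* exceeded *wt1a* in every library.

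As a share of the summed FPKM of the 4 genes, *wt1b* made up 69.3% to 76.6% in the WT BA, SV and atrium. It made up 53.5% and 64.2% in the mutant SV, 37.3% and 44.1% in the WT ventricle, and 39.6% and 32.1% in the mutant ventricle. The share of *tcf21* went the other way, from 13.4% to 19.7% in the WT BA, SV and atrium to 43.1% and 46.2% in the WT ventricle and 49.4% and 55.8% in the mutant ventricle, although its own level there was among the lowest. The summed FPKM itself was 24.0 and 13.8 in the BA, 17.3 and 12.4 in the SV, 22.2 and 30.02 in the atrium and 5.34 and 5.29 in the ventricle of WT fish, and 22.8 and 19.4 in the SV and 4.03 and 3.82 in the ventricle of mutants.

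**Figure D3:**
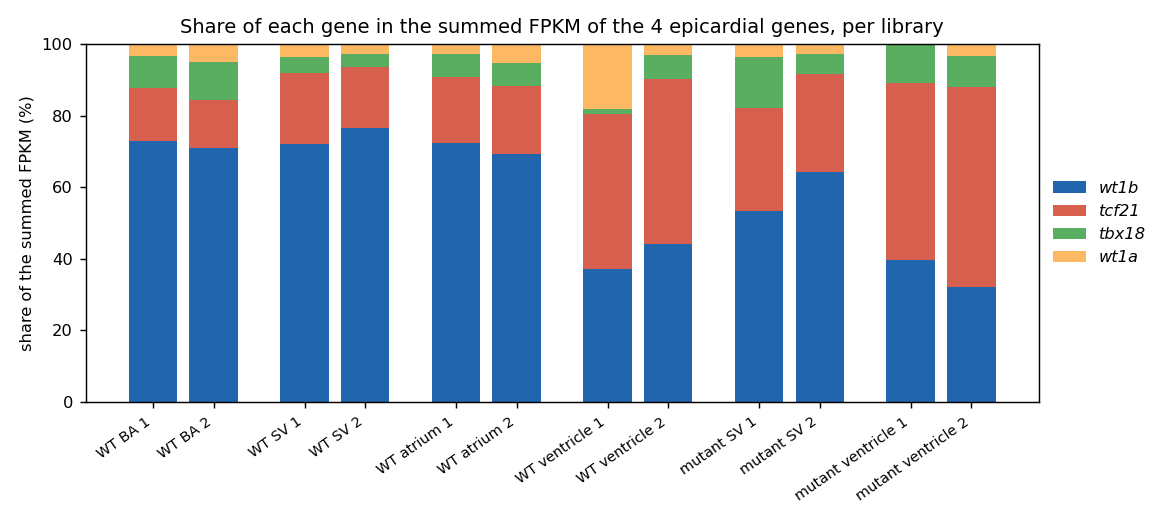
Share (%) of *wt1b*, *tcf21*, *tbx18* and *wt1a* in the summed FPKM of the 4 genes, 1 stacked bar per library, so that each bar reaches 100%. The share of *wt1b* is 69.3% to 76.6% in the 6 WT libraries of BA, SV and atrium and 32.1% to 44.1% in the 4 ventricle libraries, where *tcf21* takes 43.1% to 55.8%; *wt1a* takes 18.1% in WT ventricle replicate 1 and 2.95% in replicate 2.

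The 4 genes followed each other unevenly over the 12 libraries. Pearson's r of log2 CPM was highest between *wt1b* and *tbx18* (r = 0.81, Spearman's rho 0.79) and between *wt1a* and *wt1b* (0.73 and 0.63), and lowest between *wt1a* and *tbx18* (0.43 and 0.55). The libraries come in 6 groups of 2 and share the scaling, so these values are descriptions.

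The genes most like each member were taken as the 5 with the highest r over the 12 libraries among 11378 genes. For *wt1b* these were *gstm.3* (r = 0.956), *mmp2* (0.955), which encodes a matrix metalloproteinase, *tmem98* (0.953), *bin2b* (0.95) and *bicc1b* (0.922), where 99% of genes had an r below 0.793. Mean *gstm.3* was 120 CPM in the WT atrium, 56.3 to 70.0 in the WT BA, WT SV and mutant SV, and 13.1 and 12.2 in the WT and mutant ventricles. For *tbx18* they were *postnb* (0.965), which encodes a periostin, an extracellular matrix protein of fibroblasts, *cnih2* (0.952), *cthrc1a* (0.929), *plaua* (0.917) and *npc1* (0.909). Mean *postnb* was 117 CPM in the WT atrium, 107 in the mutant SV, 86.7 in the BA, 44.7 in the WT SV and 15.0 and 18.7 in the WT and mutant ventricles.

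For *tcf21* the closest genes reached a lower r: *kirrelb* (0.838), *cnn3a* (0.837), a calponin, *kctd6b* (0.822), *chl1b* (0.806) and *tmsb2* (0.802). Mean *cnn3a* was 115 CPM in the atrium and 102 in the mutant SV, the tissues highest in *tcf21*, and 40.4 to 63.2 in the other 4 groups. For *wt1a* they were *kank1b* (0.944), *dock10* (0.896), *gpr63* (0.843), *adamtsl4* (0.841) and *krt94* (0.836), and 1 of the 12 libraries held a single *wt1a* read. No test was made of these lists.

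**Figure D4:**
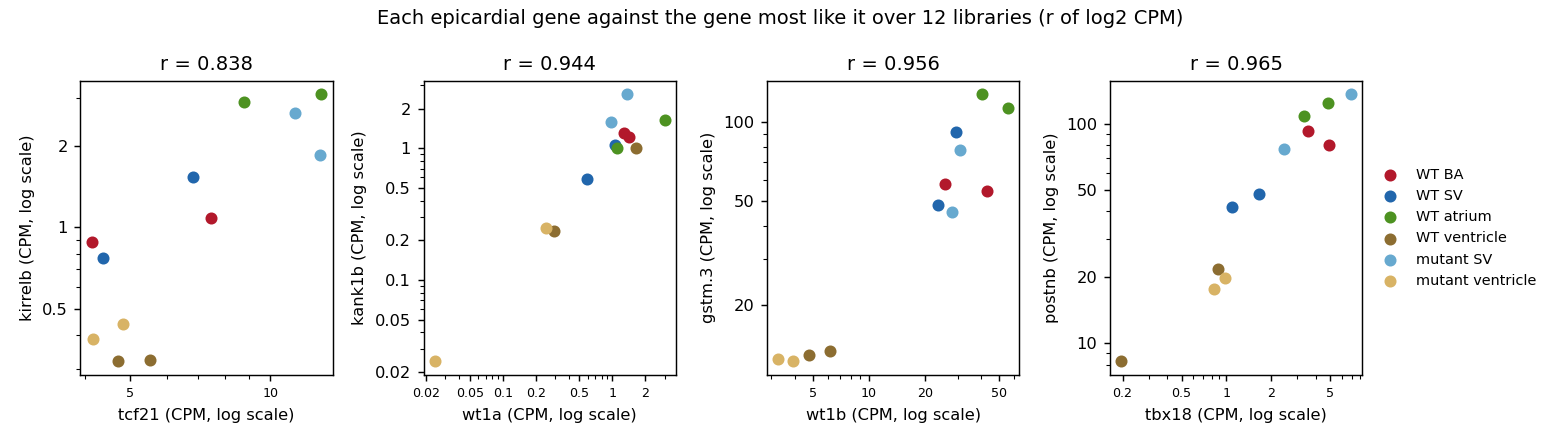
CPM of each epicardial gene (horizontal axis, log scale) against CPM of the gene with the highest Pearson r to it (vertical axis, log scale), 1 point per library coloured by group. The 4 ventricle libraries form a separate group at the lower left for *wt1b* with *gstm.3* and for *tbx18* with *postnb*, where r is 0.956 and 0.965; for *wt1a* with *kank1b* 1 mutant ventricle library lies far below the rest.

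Other genes of the epicardium and mesothelium did not move as a block with the 4. The list held 19 genes, of which 17 matched the table and 16 were tested. In the BA against the ventricle 6 were higher and 1 lower (median log2 fold change 1.16, beside 0.16 for all genes), where 13.8% of all genes were higher and 12.9% lower. For the SV against the ventricle the list gave 4 higher and 5 lower (0.08, beside 0.21), where all genes gave 19.4% and 16.3%. For the SV against the BA it gave 1 higher and 6 lower (-0.97, beside 0.06), where all genes gave 9.35% and 8.69%. The 1 higher gene was *mslna*, at 0.0457 and 5.64 CPM in the SV and 0 and 0.026 in the BA, so it rested on SV replicate 2. Between atrium and ventricle, where *wt1b* and *tbx18* differed most, 1 was higher and 1 lower (0.12, beside 0.07), where all genes gave 3.07% and 1.96%. Between mutant and WT SV none was called (0.79, beside -0.01).

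Among the listed genes, *bnc2*, which encodes a basonuclin zinc-finger protein, was also lowest in the ventricle. It was 3.37 and 3.90 CPM in the BA, 2.65 and 3.59 in the SV, 2.25 and 2.68 in the atrium and 0.688 and 0.499 in the ventricle. The ventricle libraries lay below all other WT libraries, and log2 fold changes against the ventricle were 2.69 for the BA (SE 0.47, edgeR adjusted p = 0.00153), 2.49 for the SV (SE 0.48, edgeR adjusted p = 0.00216) and 2.09 for the atrium (SE 0.46, edgeR adjusted p = 0.0282). In mutants *bnc2* was 3.89 and 6.43 CPM in the SV and 0.818 and 0.795 in the ventricle (2.69, SE 0.46, edgeR adjusted p = 0.00173). The call for atrium against ventricle was lost in 2 of the 6 alternatives and, with edgeR adjusted p of 0.0503 to 0.192, without any 1 of the WT atrium and ventricle libraries or mutant SV replicate 2; that for BA against ventricle was lost in 1 of 6.

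*tgm2b*, which encodes a transglutaminase, separated BA and SV from both working chambers. It was 142 and 199 CPM in the BA and 240 and 218 in the SV against 30.3 and 27.7 in the atrium and 23.9 and 18.4 in the ventricle, without overlap. The SV exceeded the atrium by 3.08 on the log2 scale (SE 0.32, edgeR adjusted p = 1.6e-04), whereas *wt1b* and *tbx18* were highest or near highest in the atrium.

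Several listed transcription factors were low in the WT SV. *hand2*, a basic helix-loop-helix factor of heart and epicardium development, was 23.5 and 15.9 CPM in the SV against 322 and 680 in the BA, 132 and 222 in the atrium and 149 and 239 in the ventricle. The SV was lower than each of these by 4.67, 3.26 and 3.45 on the log2 scale (SE 0.43, 0.40 and 0.41, edgeR adjusted p = 1.1e-04, 3.5e-04 and 1.3e-04). *gata6*, a GATA zinc-finger factor, fell by 2.38 against the BA (SE 0.36, edgeR adjusted p = 0.00149), as *tbx18* did. *gata6* was also 1.88 lower in the SV than in the ventricle (edgeR adjusted p = 0.00255), a comparison in which *tbx18* was not called (1.24, edgeR adjusted p = 0.0948).

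The gene for the retinoic acid synthesising enzyme of the epicardium, *aldh1a2*, was 282 and 208 CPM in the mutant SV against 78.3 and 114 in the WT SV. The log2 difference of 1.096 was not called (95% interval -0.08 to 2.27), as for *tcf21*. *podxl* encodes a sialomucin of podocytes and mesothelium and is a Wt1 target in mammals. Among WT chambers it was highest in the ventricle, where *wt1b* was lowest, at 419 and 399 CPM. It was 246 and 269 CPM in the atrium, 146 and 148 in the BA and 107 and 86.1 in the SV. That is the order of the *wt1b* means, but *wt1b* was not called between these chambers. The WT SV level of *podxl* was below that of the WT ventricle by 2.03 (SE 0.29, edgeR adjusted p = 4.0e-04). In the mutant ventricle, where *wt1b* was lowest of all groups, *podxl* was 233 and 289 CPM, near its level in the WT atrium. *podxl* is also expressed by endothelium, whose 7 listed genes summed to 396 and 404 CPM in the ventricle, 248 and 223 in the atrium, 451 and 466 in the BA and 247 and 167 in the SV. The listed genes differed in their order: among WT chambers *kdrl* was highest in the ventricle, at 216 and 180 CPM, and *pecam1* in the BA, at 123 and 115. The part of endothelium in the *podxl* levels was not tested.

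**Figure D5:**
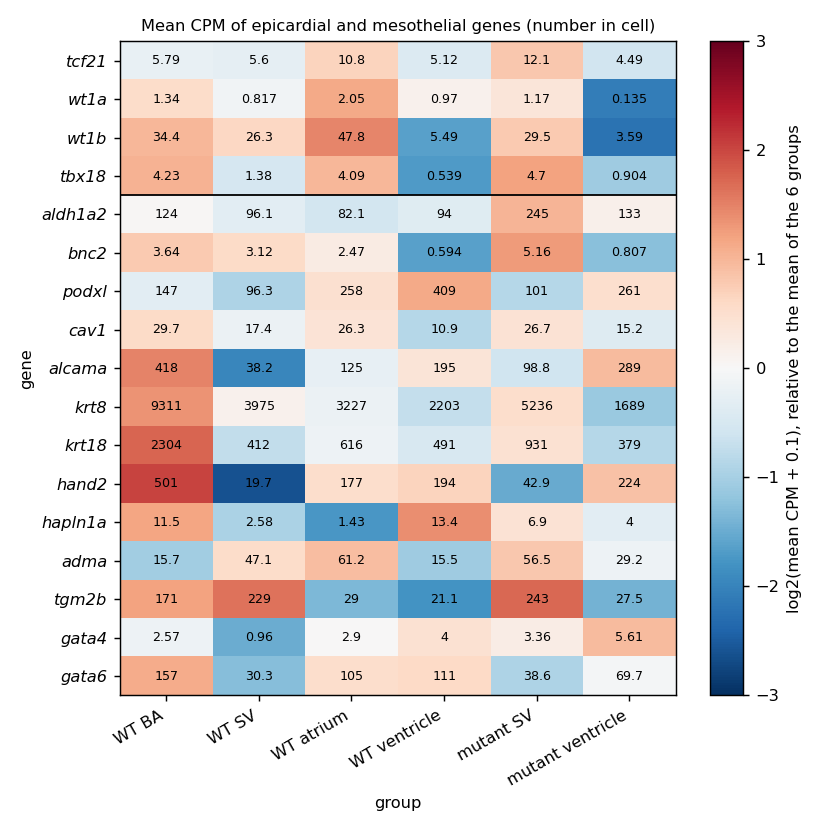
Mean CPM of the 4 epicardial genes (above the line) and of listed epicardial and mesothelial genes with a mean of at least 1 CPM over the groups, 1 column per group with the mean CPM written in each cell; colour is log2 of the mean CPM plus 0.1 relative to the mean of the 6 groups, red higher and blue lower. The ventricle columns are blue for *wt1b*, *tbx18* and *bnc2*, at 5.49, 0.539 and 0.594 CPM in the WT ventricle, while *hand2* and *gata6* are lowest in the WT SV and mutant SV columns.

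Genes tied to the members by their proteins were examined next. Among 9 matched genes known as Wt1 targets in mammals, 8 were tested, and 3 were higher and 2 lower in the SV against the ventricle, where 19.4% of all genes were higher and 16.3% lower. *snai1b*, a zinc-finger repressor that drives epithelial-to-mesenchymal transition, was 22.5 and 11.4 CPM in the BA, 7.18 and 4.50 in the SV, 1.38 and 1.13 in the atrium and 0.393 and 0.881 in the ventricle. It differed from *wt1b* in the atrium, where it was 3.70 lower on the log2 scale than in the BA (SE 0.55, edgeR adjusted p = 8.9e-04). *cdh1*, the epithelial cadherin, was 21.9 and 10.6 CPM in the WT SV and at most 1.43 CPM in the other WT tissues (5.32 against the BA, SE 0.85, edgeR adjusted p = 0.00189). The same WT SV libraries held gut, kidney and liver epithelial transcripts: *vil1* was 35.9 and 26.3 CPM, *cdh17* 33.96 and 48.4 and *fabp10a* 30.5 and 53.4, against at most 0.245 for each in the BA. Their part in the *cdh1* difference was not tested.

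Among the 4 E-protein genes, whose products pair with Tcf21, the SV had less *tcf12* than the BA, by 1.52 (SE 0.30, edgeR adjusted p = 0.00541), and than the ventricle, by 1.57 (SE 0.30, edgeR adjusted p = 0.00216), and *tcf4* was 0.160 and 0.210 CPM in the SV against 1.75 and 1.02 in the atrium (-3.08, SE 0.82, edgeR adjusted p = 0.0213). *tcf3b* was higher in the SV than in the ventricle by 1.08 (SE 0.37, edgeR adjusted p = 0.0413), a call lost in 2 of 6 alternatives and in 8 of 12 fits that left out a library, those without any WT ventricle, WT SV, WT atrium or mutant SV library (0.0521 to 0.213). The call for *tcf12* against the BA was lost in 1 of 6 alternatives and without SV replicate 2 (0.0645), and that for *tcf4* in 1 of 6 and without either SV library or atrium replicate 1 (0.107 to 0.143). None of the 4 was called between mutant and WT SV. Of 4 genes for Wt1 cofactors, *pawr* fell in the SV against BA, atrium and ventricle by 1.69, 1.45 and 1.57 (SE 0.46, 0.46 and 0.48, edgeR adjusted p = 0.028, 0.047 and 0.0251), calls lost in 2, 4 and 0 of the 6 alternatives. Each was lost without SV replicate 1 (edgeR adjusted p of 0.117 to 0.202) or 2 (0.092 to 0.168); that against the BA also without BA replicate 2 (0.0853), that against the atrium without either atrium or mutant SV library (0.0614 to 0.252), and that against the ventricle without ventricle replicate 1 (0.138) or either mutant SV library (0.0557 and 0.0562). The other 3 cofactor genes were not called in any WT comparison with the SV.

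Of the relatives of Tbx18, *tbx15* and *tbx22* stayed at or below 0.494 CPM in all libraries. *tbx1*, a T-box gene of the outflow tract, was 3.27 and 2.21 CPM in the WT SV, 0.843 and 1.90 in the BA, 0.526 and 0.321 in the atrium and 0 and 0.117 in the ventricle. Unlike *tbx18* it was higher in the SV than in the atrium, by 2.55 on the log2 scale (SE 0.78, edgeR adjusted p = 0.0385), a call lost in 1 of 6 alternatives and without any 1 of the WT SV, WT atrium or mutant SV libraries (edgeR adjusted p of 0.0647 to 0.209). In the mutant SV it was 6.02 and 5.63 CPM, and the difference of 0.94 from the WT SV was not called.

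Reads in regions where genes overlap were counted for each gene. In the GRCz12tu annotation *tcf21* overlaps *eya4* and *tbpl1*, and *wt1b* overlaps 4 genes of the table. Over the 12 libraries r was 0.143 between *tcf21* and *eya4*, -0.04 between *tcf21* and *tbpl1*, and from -0.41 (*kifc3*) to 0.61 (*prrg4*) between *wt1b* and its neighbours. How much of a member's count comes from such reads was not tested.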

How the data were processed

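Groups and replicate numbers were taken from library titles and genotype labels. The authors used cutadapt for trimming and STAR for alignment to danRer11, kept unique alignments, treated single-end and paired-end libraries as single-end, and counted reads per gene with FeatureCounts, using strand and letting a read count for each gene it overlaps; which library was sequenced in which batch is not given in the sources used here. The deposited counts are whole numbers per gene, not normalized. The deposited FPKM values are per kilobase and scaled by size factors; the authors' group means of FPKM were not used. The authors' own log2 fold changes and p-values for 8 comparisons were deposited in the same table and were not used.

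Here counts were filtered (filterByExpr), given TMM factors and entered in edgeR's quasi-likelihood test (edgeR 4.0.16, R 4.3.3) with 6 groups and 1 factor of unwanted variation, estimated from replicates by an own implementation of RUVs, as in the study's design; 5 residual degrees of freedom remained, and an adjusted p (Benjamini-Hochberg over 19145 genes) below 0.05 was a call. All 12 libraries entered each fit. Standard errors follow from the log2 fold change and the F statistic, or from the weights of the fit where F was below 0.05. The procedure was also run on simulated counts drawn without unwanted variation between replicates. That run does not show how often calls are wrong in these libraries. DESeq2 1.42.0 was an alternative; Python 3.11.15 and matplotlib 3.10.9 made tables and figures. Total counts were 28325098 to 60532949, at which 3 reads, the floor used, correspond to well under 1 CPM.

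The 4 genes and the gene lists were chosen with earlier results of these data known. Every gene of the 5 epicardial and partner lists could be named, and for each of the 4 genes the 5 genes most like it, by r of log2 CPM (prior count 2) among tested genes of at least 1 CPM with a settled symbol; values are printed for those that bear on a comparison. Of 125 listed genes 116 matched the table, 4 by an older symbol. Alternatives were no factor, DESeq2, a replicate block in place of the factor, no filter, DESeq2 size factors, only the groups compared, and each library left out. GRCz12tu gene names (RefSeq) served for overlaps only.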

Additional observations from a re-analysis of the deposited data

How the results depend on the processing

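All 4 calls of *wt1b* held under every alternative. The *tbx18* call for BA minus ventricle was lost only with the groups compared alone (2.81, edgeR adjusted p = 0.0595). Leaving out 1 library gave estimates of 2.51 to 4.3 for it. The other calls of *tbx18* and the *tcf21* call depended on single libraries or on the factor. Log2 fold changes are given with edgeR adjusted p unless another tool is named, and the cause of a change was not tested. Without a filter no value of the 4 genes changed its call or direction. Without the factor, *tbx18* lost its calls for SV minus BA (-1.61, 0.145), SV minus atrium (-1.56, 0.149) and atrium minus ventricle (2.93, 0.0621), and BA minus atrium (0.05) and mutant SV minus BA (0.15) turned, as did *wt1a* for mutant SV minus BA (-0.20); all genes called were 4 between the ventricles, 138 between the SVs, 5 for the difference of genotype effects and 496 for atrium minus ventricle. With DESeq2 size factors, *tcf21* for SV minus BA (0.02) and *wt1a* for SV minus ventricle (0.05) turned, *tbx18* for SV minus BA was not called (-1.6, 0.0525), 10 and 27 genes were called for the difference of genotype effects and between the ventricles, SV rose above BA in the order of *tcf21* (2 groups moved, also 2 by FPKM), and the median of all genes for SV minus atrium rose from 0.06 to 0.17. DESeq2 itself gave *tcf21* 0.02 (SV minus BA), *wt1a* 0.12 (SV minus ventricle) and a call of *wt1a* in mutant SV minus mutant ventricle (3.56, DESeq2 adjusted p = 0.00528), and called 601 genes for the difference of genotype effects, 2520 for mutant SV minus BA, 739 between the ventricles, 997 between the SVs and 2324 for atrium minus ventricle. With only the groups compared, *tbx18* lost SV minus BA (-1.35, 0.114), mutant SV minus mutant ventricle (2.06, 0.0523) and BA minus ventricle (2.81, 0.0595), *wt1a* turned for mutant SV minus BA (-0.33) and SV minus ventricle (1.05) and *tcf21* for SV minus BA (0.31); *wt1a* was filtered out between the ventricles, and 2457, 502, 38, 2171, 2103, 12, 1937 and 179 genes were called for mutant SV minus mutant ventricle, the SVs, mutant SV minus BA, BA minus ventricle, SV minus BA, the difference of genotype effects, BA minus atrium and the ventricles.

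Leaving out 1 library at a time gave these ranges. For *tbx18*: SV minus BA -2.12 to -1.26, SV minus atrium -2.25 to -1.42, SV minus ventricle 0.82 to 2.61, BA minus atrium -0.47 to 0.11, atrium minus ventricle 2.50 to 4.29, mutant SV minus BA -0.79 to 0.41, mutant SV minus mutant ventricle 1.64 to 2.78 and the difference of genotype effects -0.51 to 1.6. For *tcf21*: SV minus BA -0.43 to 0.43, SV minus ventricle -0.29 to 0.41, BA minus ventricle -0.35 to 0.50 and mutant SV minus mutant ventricle 1.24 to 1.51. For *wt1a*: BA minus atrium -1.29 to 0.64, BA minus ventricle -0.37 to 2.32, SV minus ventricle -1.12 to 1.58, mutant SV minus BA -0.61 to 0.61 and mutant SV minus mutant ventricle 2.23 to 5.43. For *wt1b*: SV minus BA -0.72 to 0.03, mutant SV minus BA -0.61 to 0.14 and mutant minus WT SV -0.10 to 0.30. Genes called numbered 1477 to 3618 (SV minus BA), 2030 to 4342 (SV minus atrium), 4047 to 7365 (SV minus ventricle), 2032 to 3854 (BA minus atrium), 2878 to 5260 (BA minus ventricle), 88 to 1182 (atrium minus ventricle), 122 to 387 (SVs), 0 to 178 (ventricles), 668 to 1598 (mutant SV minus BA) and 5 to 89 (difference of genotype effects).

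With the replicate block in place of the factor, *tbx18* lost SV minus atrium (-1.58, 0.201), SV minus BA (-1.61, 0.203), mutant SV minus mutant ventricle (2.35, 0.0681) and atrium minus ventricle (2.91, 0.118), *tbx18* turned for mutant SV minus BA (0.13) and BA minus atrium (0.03) and *wt1a* for mutant SV minus BA (-0.21), and genes called fell to 493 for mutant SV minus BA, 2 for the difference of genotype effects, 0 between the ventricles, 61 between the SVs, 196 for atrium minus ventricle, 1664 for SV minus BA and 2423 for SV minus atrium. The labels do not say that a number is shared between groups, and same-numbered libraries deviated together with r of -0.50 to 0.18, so the numbers were not taken to pair libraries. With crossed numbers, added after the data were seen, 5 genes were called between the ventricles and 149 between the SVs.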
